A study of Mus musculus with 6 samples.

Results

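The genes described here are the non-coding small nucleolar RNA (snoRNA) host genes Gas5, Snhg1, Snhg3, Snhg5, Snhg6, Snhg8 and Snhg12. They were found in the table by gene symbol, from a list drawn up with earlier results of these data known. Of these 7 genes, Gas5, Snhg3 and Snhg12 matched a row of the deposited table of 34573 genes, and all 3 passed the filter on low counts. Snhg1, Snhg5, Snhg6 and Snhg8 matched no row by their symbol or by the older symbols in the reference tables, and their own transcripts are not analysed here.

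RNA was sequenced from double negative 3 (DN3) thymocytes, immature T cells of the thymus that lack CD4, CD8 and CD44 and carry CD25. The 3 L1 KO libraries are from thymocytes with floxed Rpl22l1 alleles in which Cre recombinase was present (Cre+ Rpl22l1 f/f). The 3 WT libraries are from thymocytes with the same floxed alleles and no Cre. All mice were 6 to 8 weeks old with a mix of C57BL/6 and 129 as strain, and the cells were not cultured. The Cre is named Vav-Cre, a transgene active in blood-forming cells, and no control group carries it. The series text assigns Cre to the genotypes the other way round. The sample labels were followed, and Rpl22l1 itself, a ribosomal protein gene and paralog of Rpl22, was at 18.6, 19.996 and 26.1 CPM (counts scaled to library size) in L1 KO libraries 1 to 3, against 86.3, 123 and 118 CPM in WT libraries 1 to 3. It fell by 2.35 ± 0.18 on the log2 scale (SE; edgeR quasi-likelihood test, Benjamini-Hochberg adjusted p = 0.00103).

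The L1 KO libraries held 25657313, 28128186 and 13887672 reads counted to genes, and the WT libraries 21571810, 20385508 and 19570475. The 9 markers of DN3 cells summed to 8412 to 8869 CPM in L1 KO libraries and 8913 to 9538 CPM in WT libraries, and moved in both directions. Il2ra, which encodes CD25, was above WT in every L1 KO library (log2 fold change 0.30), while Notch3 (−0.32) and Lck (−0.18) were below WT in every one. These 3 and Rag1 (−0.36) did not pass, but did with the library number as a block (edgeR quasi-likelihood test, adjusted p = 0.00241 for Il2ra, 0.00543 for Notch3, 0.0292 for Lck and 0.00264 for Rag1). The markers that the sort should leave low, Cd4, Cd8a, Cd8b1 and Cd44, summed to 6.11 to 11.05 CPM in L1 KO and 6.44 to 8.14 CPM in WT. Within that sum Cd44 was at 1.56, 3.88 and 4.54 CPM in L1 KO libraries 1 to 3, against 1.14, 1.90 and 1.53 CPM in WT libraries 1 to 3, with a log2 fold change of 1.104 (edgeR quasi-likelihood test, adjusted p = 0.141, and 0.0116 with the block). Among markers of other cells, the 4 epithelial genes summed to 30.6 to 34.98 CPM in L1 KO and 46.6 to 63.1 CPM in WT. Nearly all of this was Epcam, at 32.1 ± 2.35 CPM in L1 KO and 54.3 ± 8.33 CPM in WT. Krt5 and Foxn1 were at or near 0, and Krt8 averaged 0.250 CPM in L1 KO and 0.0787 CPM in WT. Of the erythroid genes, Hba-a2 averaged 0.282 ± 0.370 CPM in L1 KO and 1.52 ± 0.434 CPM in WT (SD, n = 3 each), below WT in every L1 KO library. It did not pass, but did with the block (edgeR quasi-likelihood test, adjusted p = 0.101 without the block and 0.0137 with it). The 4 myeloid genes summed to 24.6 to 31.1 CPM in L1 KO and 24.1 to 29.5 CPM in WT, and the 3 NK genes, Nkg7 in the main with Ncr1 at 0, to 30.3 to 41.1 CPM in L1 KO and 35.3 to 39.4 CPM in WT. The 4 dendritic genes summed to 0.907 to 1.02 CPM in L1 KO and 2.68 to 3.05 CPM in WT. The 4 mature T cell genes summed to 535 to 657 CPM in L1 KO and 465 to 555 CPM in WT. The 4 B lineage genes stayed at or below 0.762 CPM in every library, with Ms4a1 and Pax5 at 0 reads. What these other cells contribute to the host gene levels was not tested. In such bulk samples, fewer cells of a type and less RNA per cell cannot be told apart.

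A snoRNA host gene is transcribed as a long precursor whose introns hold the snoRNAs, which are trimmed out after splicing and bound by a set of core proteins. C/D snoRNAs guide 2′-O-methylation and H/ACA snoRNAs guide pseudouridylation of ribosomal RNA, while a few, such as Snora73 (U17), act in the cleavage of its precursor. In the non-coding hosts the spliced exons carry no long reading frame. The spliced RNA of Gas5 is engaged by ribosomes and removed by nonsense-mediated decay, the pathway that destroys RNAs with an early stop codon. Several of these hosts start, like the mRNAs of ribosomal proteins, with a terminal oligopyrimidine (TOP) tract, a C followed by a run of C and T bases that ties translation to growth signals. Gas5 takes its name from its accumulation in growth-arrested cells.

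The start sites show how far the members share that tract. RefSeq start sequences on GRCm38.p6 were found for 6 of the 7 members, with none for Snhg6. Each line gives 25 bases on either side of the annotated start, so that the first transcribed base is base 26. Capitals mark a C followed by at least 4 C or T bases that begins within 10 bases of the start. The search covered the transcribed strand only.
Gas5, upstream start, chr1:161034576-161034625, plus strand: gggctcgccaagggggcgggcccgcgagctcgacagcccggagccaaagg
Gas5, downstream start, chr1:161035141-161035190, plus strand: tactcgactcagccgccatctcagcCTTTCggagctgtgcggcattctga
Snhg3, chr4:132353662-132353711, minus strand: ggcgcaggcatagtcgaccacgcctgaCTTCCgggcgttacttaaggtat
Snhg12, chr4:132308653-132308702, plus strand: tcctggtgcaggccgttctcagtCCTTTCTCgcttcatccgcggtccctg
Snhg1, chr19:8723462-8723511, plus strand: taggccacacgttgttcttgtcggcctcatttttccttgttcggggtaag
Snhg5, chr9:88522873-88522922, minus strand: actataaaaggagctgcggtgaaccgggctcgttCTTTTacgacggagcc
Snhg8, chr3:123508312-123508361, minus strand: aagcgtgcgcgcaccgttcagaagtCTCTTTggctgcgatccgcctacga
The tract began exactly at the annotated start in 2 of the 6 genes, Gas5 at its downstream start and Snhg8, while 3.01% of the 27025 genes in the same table had it there. In a window of 10 bases either side it was found in 5 of the 6, all but Snhg1, while 34.4% of all genes had it. For Snhg12 the run begins 2 bases before the annotated start and for Snhg3 at the third transcribed base. These are matches of letters around annotated starts. The deposited counts do not show which start the thymocytes used.

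The measured hosts lie at a pair of loci. Gas5 (ENSMUSG00000053332) spans chr1:161034422-161038539 on the plus strand of GRCm38, with 25 annotated transcripts and 9 snoRNAs inside it. Snhg12 (ENSMUSG00000086290) spans chr4:132308623-132311024 on the plus strand, with 10 transcripts and 4 snoRNA genes. Snhg3 (ENSMUSG00000085241), with 5 transcripts and 2 snoRNAs, lies near it at chr4:132348014-132353686 on the minus strand. Snhg3 shares most of its exon sequence with other genes: 86.3% of its 986 exon bases also lie in exons of another annotated gene. Of these 986 bases, 71.5% lie in exons of the antisense transcript Gm17300, 13.7% in exons of the coding gene Rcc1 on the same strand and 16.1% in snoRNAs. For Gas5 and Snhg12 the shared parts were 17.8% and 19.6% of exon bases, and both were snoRNA sequence alone. No source used here gives the strand setting or the annotation of the counting, so reads of Snhg3 and of its overlapping partners cannot be told apart.

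None of the 3 measured hosts passed the test between L1 KO and WT, and all 3 log2 fold changes were above 0. Snhg3 had the largest, with 1.38 times the WT mean, followed by Gas5 with 1.26 times and Snhg12 with 1.06 times. By edgeR's quasi-likelihood test, 0 of 3 were called at an adjusted p under 0.05, and 1, Snhg3, was below 0.05 unadjusted, as were 23.4% of all tested genes. Over the 13729 tested genes, 4.57% were called, 2.14% of all tested genes being higher and 2.43% lower in L1 KO. DESeq2 called 1 of the 3, Snhg3, against 8.9% of all tested genes, and limma-voom 0, against 3.89%. With the library number as a block the count was 2 of 3, Gas5 and Snhg3, both higher, against 20.3% of all tested genes, 9.96% being higher and 10.3% lower. The median log2 fold change of the 3 was 0.33, against −0.0066 over all tested genes.

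Gas5, the host of C/D snoRNAs and the most abundant of the 3, had 293, 373 and 414 CPM in L1 KO libraries 1 to 3, against 228, 316 and 315 CPM in WT libraries 1 to 3. The number 1 library was the lowest of its group in both genotypes, and L1 KO 1 lay below WT 2 and WT 3, so the groups overlap. The means were 360.2 ± 61.6 CPM in L1 KO and 287 ± 50.4 CPM in WT (SD, n = 3 each). The log2 fold change of 0.33 ± 0.16 (SE) did not pass (edgeR quasi-likelihood test, Benjamini-Hochberg adjusted p = 0.277). Between libraries of the same number, L1 KO was above WT in 3 of 3 pairs, by 0.36, 0.24 and 0.39 on the log2 scale. With the number as a block the log2 fold change stayed at 0.33 and the adjusted p was 0.00195 by edgeR's quasi-likelihood test. It also passed without both number 1 libraries (0.32, adjusted p = 0.00302). Leaving out WT 1 alone lowered the log2 fold change to 0.19, with an adjusted p of 0.496, both by the same test.

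Snhg3, the host of the H/ACA snoRNAs Snora73a and Snora73b, had 18.9, 23.3 and 25.2 CPM in L1 KO libraries 1 to 3, against 16.2, 15.7 and 17.1 CPM in WT libraries 1 to 3. All L1 KO libraries lay above all WT libraries, as was the case for 13.8% of the tested genes. The means were 22.5 ± 3.27 CPM in L1 KO and 16.3 ± 0.705 CPM in WT (SD, n = 3 each), so the L1 KO libraries were the more scattered. The log2 fold change of 0.46 ± 0.12 (SE) did not pass (edgeR quasi-likelihood test, Benjamini-Hochberg adjusted p = 0.0582). It passed with the number as a block, at 0.45 and an adjusted p of 0.00867 by the same test, and in DESeq2, at 0.46 and an adjusted p of 0.0218. Without L1 KO library 1 the adjusted p was 0.00605, and without any other single library it was between 0.109 and 0.217. L1 KO 1 was the library nearest to WT. Its difference from WT 1 was 0.22 on the log2 scale, against 0.57 for the number 2 pair and 0.56 for the number 3 pair.

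Snhg12, the host of Snora16a, Snora44, Snora61 and Snord99, had 31.6, 30.4 and 29.2 CPM in L1 KO libraries 1 to 3, against 28.2, 26.9 and 31.2 CPM in WT libraries 1 to 3. The groups overlap, with WT 3 above L1 KO 2 and L1 KO 3. The means were 30.4 ± 1.22 CPM in L1 KO and 28.8 ± 2.20 CPM in WT (SD, n = 3 each). The log2 fold change was 0.08 ± 0.08 (SE) (edgeR quasi-likelihood test, Benjamini-Hochberg adjusted p = 0.582). The block left it without a call, with an adjusted p of 0.484 by the same test. The number 3 pair differed by −0.0953 on the log2 scale, unlike the other pairs. With a library left out the log2 fold change was between 0.04, without WT 2, and 0.15, without WT 3.

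**Figure D1:**
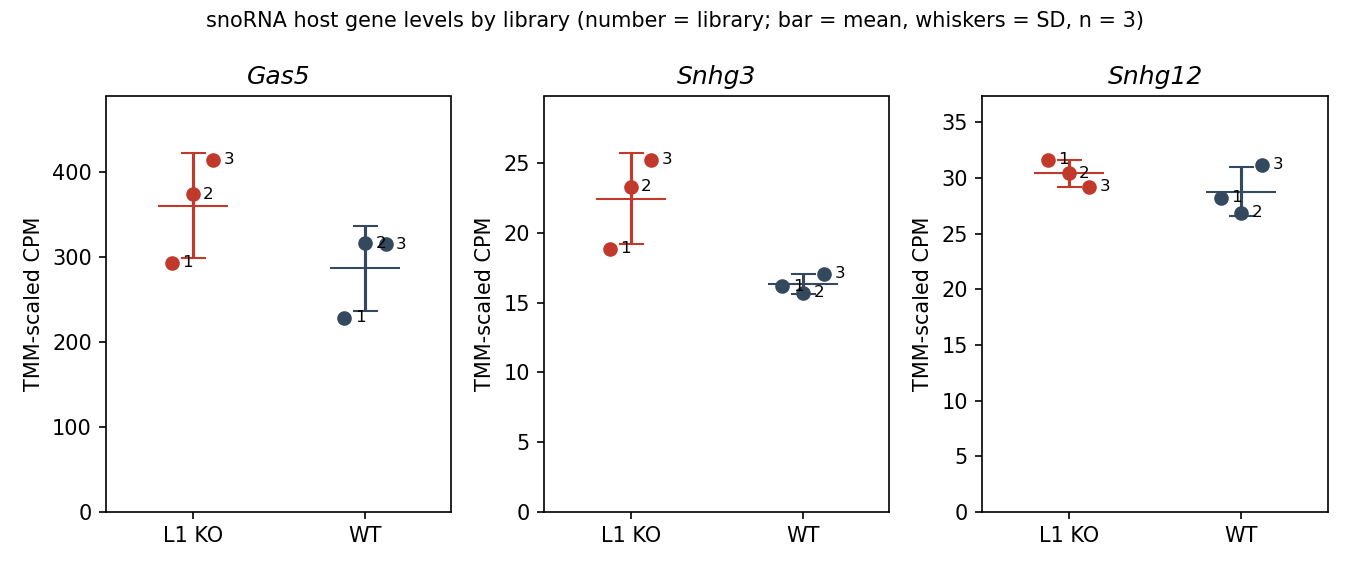
CPM of Gas5, Snhg3 and Snhg12 in each library, with L1 KO left of WT, points numbered by library and bars at the group mean ± SD. Only for Snhg3 do all L1 KO points, from 18.9 CPM, lie above all WT points, which reach 17.1 CPM.

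Per length, the order of the hosts was the same in both groups. Scaled to the union of annotated exons, Gas5 had 95.8 ± 16.4 CPM per kilobase in L1 KO and 76.2 ± 13.4 in WT (SD, n = 3 each). Snhg3 had 22.8 ± 3.31 CPM per kilobase in L1 KO and 16.6 ± 0.715 in WT, and Snhg12 12.7 ± 0.507 in L1 KO and 11.98 ± 0.918 in WT. Gas5 thus stood far above the others per length, and Snhg3 stood above Snhg12 by more than their spreads, although Snhg12 drew more reads than Snhg3. The per-length value of Snhg3 rests on exons it shares with other genes. The exon union covers all 2402 bp of the Snhg12 span and 3760 of the 4118 bp of Gas5, but 986 of the 5673 bp of Snhg3. These lengths thus take in unlike shares of each gene, and the order of Snhg3 and Snhg12 depends on them. In WT, the 3 hosts lay at the 96.1, 73.2 and 63.2 percentiles of level per kilobase among the 13020 tested genes with an annotated length. With the longest transcript as the length, the values were higher and kept that order, at 141 for Gas5, 38.7 for Snhg3 and 19.8 for Snhg12 CPM per kilobase in L1 KO, and 112 for Gas5, 28.1 for Snhg3 and 18.7 for Snhg12 in WT. Together the 3 hosts took 0.0344%, 0.0418% and 0.0461% of gene reads in L1 KO libraries 1 to 3, against 0.0278%, 0.0361% and 0.0365% in WT libraries 1 to 3.

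The members did not keep the same proportion to each other in every library. The ratio of Snhg3 to Snhg12 reads was 0.597, 0.766 and 0.865 in L1 KO libraries 1 to 3, against 0.573, 0.584 and 0.548 in WT libraries 1 to 3. It was above WT in every L1 KO library, with a log2 difference of 0.37 and the smallest p that 3 against 3 libraries can give, 0.1 (two-sided exact permutation test), or 0.3 after adjustment over the 3 ratios. Gas5 over Snhg12 was 9.27, 12.3 and 14.2 in L1 KO, against 8.09, 11.8 and 10.1 in WT, with overlapping groups and an exact permutation p of 0.4. Gas5 over Snhg3 was 15.5, 16.0 and 16.4 in L1 KO, against 14.1, 20.1 and 18.4 in WT, with an exact permutation p of 0.5. The adjusted p was 0.5 for both of these ratios.

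The snoRNAs themselves were barely covered by these counts. Of the 27 snoRNA genes, counted by symbol, that GENCODE M21 places inside the 7 hosts, 10 have a row, and most of those had few or no reads. Those with enough reads to be tested are printed on the transcribed strand of GRCm38. Capitals mark the ACA that lies 3 bases from the end of an H/ACA snoRNA, or the TGATGA (in the first 20 bases) and CTGA (in the last 20 bases) of a C/D snoRNA.
Snora73b in Snhg3, chr4:132352322-132352526, minus strand: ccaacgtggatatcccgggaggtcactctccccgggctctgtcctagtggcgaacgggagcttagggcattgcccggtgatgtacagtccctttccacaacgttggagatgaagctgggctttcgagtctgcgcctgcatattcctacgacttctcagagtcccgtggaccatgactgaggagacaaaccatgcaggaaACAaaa
Snora16a in Snhg12, chr4:132309465-132309600, plus strand: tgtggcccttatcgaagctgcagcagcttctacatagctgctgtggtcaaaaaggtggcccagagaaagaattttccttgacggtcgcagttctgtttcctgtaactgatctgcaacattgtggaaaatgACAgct
Snora24 in Snhg8, chr3:123507937-123508066, minus strand: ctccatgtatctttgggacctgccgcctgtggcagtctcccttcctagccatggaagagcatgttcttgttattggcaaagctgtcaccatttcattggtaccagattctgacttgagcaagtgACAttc
Snord87 in Snhg6, chr1:9942463-9942549, minus strand: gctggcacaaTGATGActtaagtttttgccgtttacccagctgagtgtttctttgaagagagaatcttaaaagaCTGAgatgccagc
The ACA was found at that place in 83.3% of 42 annotated Snora genes and in 18.3% of all 1507 annotated snoRNAs. The paired C/D motifs were found in 69.4% of 98 Snord genes and in 20.5% of all snoRNAs. Only the transcribed strand was searched. Reads from total RNA libraries over such short genes can come from the unspliced host as well as from the snoRNA, and these counts cannot tell them apart.

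Snora73b, the U17 snoRNA of Snhg3, had 148, 167 and 79 reads in L1 KO libraries 1 to 3, against 114, 107 and 106 reads in WT libraries 1 to 3. Scaled to depth, these were 5.87 ± 0.169 CPM in L1 KO and 5.26 ± 0.112 CPM in WT (SD, n = 3 each). All L1 KO libraries were above all WT libraries, as for 13.8% of the tested genes. The log2 fold change of 0.16 ± 0.13 (SE) did not pass (edgeR's quasi-likelihood test, adjusted p = 0.508). Its neighbour Snora73a had 4, 4 and 2 reads in L1 KO and 5, 4 and 8 reads in WT, too few to test. These snoRNAs differ at 7 of 205 bases, an identity of 96.6%, so reads that align to both can be lost or split between them. Snora73a also lies partly in an annotated Snhg3 exon, while Snora73b lies between exons. What this does to their counts was not tested.

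The snoRNAs inside the hosts without a row gave values of their own. Snora24, which lies inside Snhg8, had 75, 219 and 68 reads in L1 KO libraries 1 to 3, against 63, 80 and 80 reads in WT libraries 1 to 3. Most of the difference came from L1 KO 2, and the groups overlap. The log2 fold change was 0.56 ± 0.35 (SE; edgeR's quasi-likelihood test, adjusted p = 0.373), and without L1 KO 2 it was 0.11. Without L1 KO 1 it was 0.87, with an adjusted p of 0.0368 by the same test.

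Snord87, inside Snhg6, had 61, 98 and 37 reads in L1 KO and 52, 46 and 53 reads in WT, with a log2 fold change of 0.25 ± 0.22 (edgeR's quasi-likelihood test, adjusted p = 0.525). That value was 0.06 without L1 KO 2 and 0.39 without L1 KO 1. Snora16a, inside Snhg12, averaged 2.46 ± 0.519 CPM in L1 KO and 2.18 ± 0.301 CPM in WT, with a log2 fold change of 0.17 ± 0.23 (the same test, adjusted p = 0.700), −0.0078 without L1 KO 1, 0.07 without WT 3 and 0.33 without L1 KO 2. Both have overlapping groups. Snord47 of Gas5, Snord22 of Snhg1, and Snora44, Snora61 and Snord99 of Snhg12 were at 0 reads in all 6 libraries. Each lies inside annotated exon sequence of its host in GENCODE M21, as does Snora16a. Reads there may have gone to the host or uncounted, so 0 reads need not mean absence. This was not tested. Over the table as a whole, 105 rows carry a Snora or Snord symbol, 39 of them at 0 reads throughout. Of the 39 that could be tested, 0 were called by edgeR's quasi-likelihood test, by DESeq2 or by limma-voom. Of these 39, 1 was below 0.05 unadjusted in edgeR, against 23.4% of all tested genes. Their median log2 fold change was 0.10, and 28 were above 0.

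The genes around the hosts differed from locus to locus. At Snhg3, the overlapping Rcc1, the nucleotide exchange factor of the GTPase Ran, had 161, 170 and 165 CPM in L1 KO libraries 1 to 3, against 137, 122 and 151 CPM in WT libraries 1 to 3. All L1 KO libraries were above all WT libraries, as for 13.8% of the tested genes. The log2 fold change was 0.28 ± 0.08 (SE; edgeR's quasi-likelihood test, adjusted p = 0.0794, and 0.0129 with the block). The antisense Gm17300 had 48.1, 55.5 and 58.2 CPM in L1 KO, against 41.2, 40.2 and 45.1 CPM in WT, again without overlap. Its log2 fold change was 0.35 ± 0.09 (SE; the same test, adjusted p = 0.0553, and 0.00444 with the block). Rcc1 and Gm17300 thus had log2 fold changes above 0 like Snhg3, with which they share sequence. The flanking coding genes were near 0: Trnau1ap, a tRNA selenocysteine factor, had a log2 fold change of −0.01, and Phactr4, a regulator of protein phosphatase 1 and actin, one of −0.0038.

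At Gas5, Zbtb37, a zinc finger gene on the other strand whose annotated span overlaps Gas5 by 428 bp, had 28.7 ± 2.32 CPM in L1 KO and 35.8 ± 5.34 CPM in WT. Its log2 fold change of −0.32 ± 0.11 did not pass (edgeR's quasi-likelihood test, adjusted p = 0.135), but did with the block (adjusted p = 0.0108).

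Some neighbours of the hosts without a row passed the test. Slc3a2, the heavy chain of the amino acid transporters that include Slc7a5, lies 106 bp from Snhg1 on the other strand and averaged 104 ± 8.63 CPM in L1 KO and 78.3 ± 5.65 CPM in WT. It rose by 0.41 ± 0.08 on the log2 scale (SE; edgeR's quasi-likelihood test, adjusted p = 0.0261) with separate groups, and did not pass without L1 KO 2, L1 KO 3, WT 1 or WT 2 (adjusted p up to 0.133). Wdr74, a ribosome biogenesis factor on the other side of Snhg1, had a log2 fold change of 0.12 (the same test, adjusted p = 0.389). Sgk3, a serine/threonine kinase 41114 bp from Snhg6, was lower, at 45.5 ± 6.00 CPM in L1 KO and 68.6 ± 6.996 CPM in WT. Its log2 fold change was −0.59 ± 0.11 (SE; the same test, adjusted p = 0.0226), and it did not pass without L1 KO 3, WT 1 or WT 2 (adjusted p up to 0.110). The genes beside Snhg5, Syncrip and Zfp949, had log2 fold changes of 0.10 and −0.17, and Mcmdc2, which overlaps Snhg6, one of 0.27, with 436 reads in all. Serpinc1 beside Gas5 and Rab42 beside Snhg12 had 48 and 31 reads in all and were not tested, and the genes beside Snhg8 had at most 2.

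**Figure D2:**
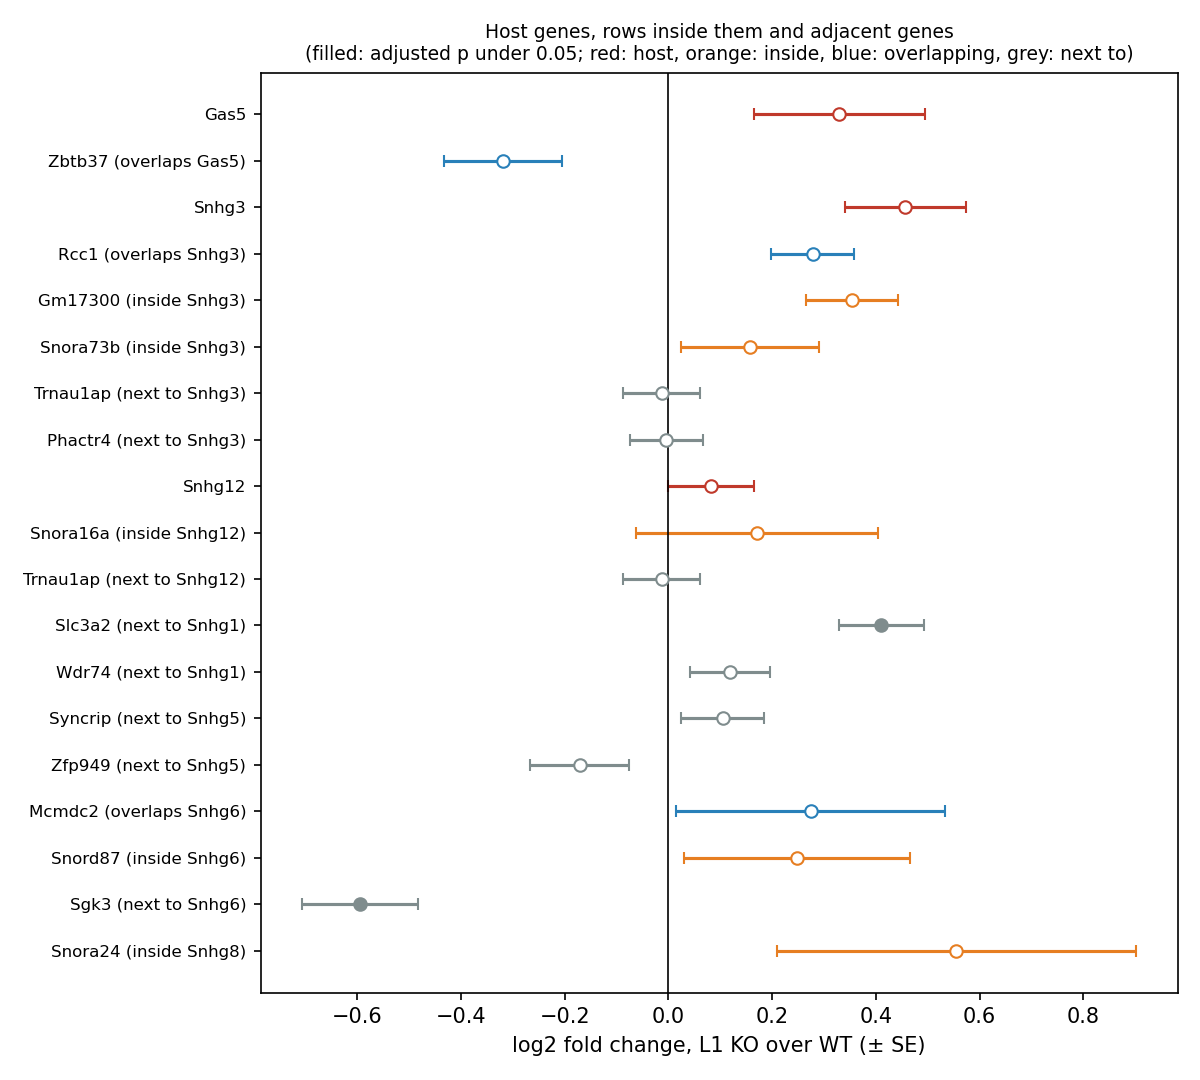
Log2 fold change of L1 KO against WT, with its SE, for each tested host, for the snoRNAs inside the 7 hosts and for overlapping or nearby coding genes, grouped by host, with filled points past an adjusted p of 0.05. Filled points are Slc3a2 at Snhg1 and Sgk3 at Snhg6, while the hosts themselves are open.

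The other non-coding hosts lay on both sides of 0. Of 17 such genes listed, 10 had a row and 7 could be tested, and 3 of these had a log2 fold change above 0, with a median of −0.0026. By edgeR's quasi-likelihood test 0 passed, with 2 below 0.05 unadjusted, against 23.4% of all tested genes. DESeq2 called 1, against 8.9%, and limma-voom 0, against 3.89%. Snhg15, listed as Gm11974, had the smallest p, with 40.1, 38.0 and 39.7 CPM in L1 KO libraries 1 to 3, against 27.0, 34.2 and 31.0 CPM in WT libraries 1 to 3. Its L1 KO libraries were all above WT, as for 13.8% of the tested genes. The log2 fold change was 0.35 ± 0.09 (SE; edgeR's quasi-likelihood test, adjusted p = 0.0630, and 0.0114 with the block). Snhg20, listed as 2810008D09Rik, had all L1 KO libraries below WT, and 28.4% of tested genes had separate groups in either direction. Snhg20 averaged 20.95 ± 2.598 CPM in L1 KO and 25.5 ± 2.40 CPM in WT. Its log2 fold change was −0.28 ± 0.11 (the same test, adjusted p = 0.172). Zfas1, a host of C/D snoRNAs with a TOP start, had 86.2 ± 7.60 CPM in L1 KO and 82.0 ± 7.96 CPM in WT, with a log2 fold change of 0.07.

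Coding genes that carry snoRNAs in their introns were mostly above 0. Of 24 ribosomal protein hosts, all 24 tested had a log2 fold change above 0, against 6697 of all 13729 tested genes. Their median WT level was 986 CPM, against 28.5 CPM over all tested genes, and genes of such a list are not separate observations. The median log2 fold change of the 24 was 0.13, against −0.0066 over all genes, but 0 passed edgeR's quasi-likelihood test. There were 3 below 0.05 unadjusted, against 23.4% of all tested genes. DESeq2 called 1, against 8.9%, limma-voom 0, against 3.89%, and the block 6, all higher, against 9.96%. Rpl4, a large subunit protein, had the smallest p, at 2325 ± 157 CPM in L1 KO and 1981 ± 74.8 CPM in WT, with a log2 fold change of 0.23 ± 0.08 (the same test, adjusted p = 0.134, and 0.00651 with the block). Of the 42 other coding hosts, 38 had a row and 36 were tested, with 29 above 0 and a median of 0.12. Of these, 1 rose, Snx5, a sorting nexin of endosomes, while 2.14% of all tested genes rose. It had 371, 439 and 419 CPM in L1 KO libraries 1 to 3, against 308, 331 and 335 CPM in WT libraries 1 to 3. Its log2 fold change was 0.33 ± 0.08 (SE; the same test, adjusted p = 0.0498), near the threshold. The block called 12 of these coding hosts higher and 1 lower, against 9.96% and 10.3% of all tested genes. Of the 36 tested, 7 were below 0.05 unadjusted in edgeR, against 23.4% of all tested genes. DESeq2 called 4, against 8.9%, and limma-voom 0, against 3.89%.

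The proteins that assemble on snoRNAs held 2 of the 4 called genes of these lists. Of 20 snoRNP core and assembly proteins, 2 rose and 0 fell, 19 were above 0 and the median log2 fold change was 0.19. There were 10 below 0.05 unadjusted in edgeR, against 23.4% of all tested genes. DESeq2 called 4, against 8.9%, and limma-voom 2, against 3.89%. Over all 13729 tested genes 2.14% rose and 6697 were above 0. Nop56 and Nop58 of this list are also among the coding hosts. Fbl, fibrillarin, the methyltransferase of C/D particles, had 270.4, 278 and 271 CPM in L1 KO libraries 1 to 3, against 201, 219.8 and 234 CPM in WT libraries 1 to 3. The groups were separate, with a log2 fold change of 0.32 ± 0.07 (SE; edgeR's quasi-likelihood test, adjusted p = 0.0367). Snu13, listed as Nhp2l1, which binds the k-turn of C/D snoRNAs, averaged 259 ± 10.4 CPM in L1 KO and 214 ± 7.73 CPM in WT, a rise of 0.28 ± 0.06 (the same test, adjusted p = 0.0434). The H/ACA core proteins Gar1 and Nhp2 had log2 fold changes of 0.29 (adjusted p = 0.0520, and 0.00640 with the block) and 0.24 (adjusted p = 0.0874, and 0.0167 with the block) by the same test. With the block, 12 of the 20 were called, all higher, against 9.96% of all tested genes. Fbl, Snu13 and Snx5 each passed without L1 KO 1 and lost the call without any other single library, with adjusted p-values up to 0.207.

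Factors of nonsense-mediated decay held no gene that passed edgeR's quasi-likelihood test among 19 tested. Their median log2 fold change was 0.03, and 13 were above 0. There were 4 below 0.05 unadjusted, against 23.4% of all tested genes, and DESeq2 and limma-voom called 0. The block called 2 higher and 2 lower, against 9.96% and 10.3% of all tested genes. Smg6, the endonuclease of the pathway, had the smallest p, with 114 ± 4.20 CPM in L1 KO and 131 ± 5.80 CPM in WT. Its log2 fold change was −0.21 ± 0.06 (SE; edgeR's quasi-likelihood test, adjusted p = 0.0823, and 0.0193 with the block). All its L1 KO libraries lay below WT, and 28.4% of tested genes had separate groups in either direction.

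Of 17 TOP mRNAs that do not code for ribosomal proteins, 17 were above 0, against 6697 of all 13729 tested genes. These too are not separate observations. Their list had a median log2 fold change of 0.18 and a median WT level of 774 CPM, against 28.5 CPM over all tested genes. It shares Eef1b2, Eef2, Tpt1, Rack1 and Ipo7 with the coding hosts, so these lists are not separate. By edgeR's quasi-likelihood test 0 passed, with 6 below 0.05 unadjusted, against 23.4% of all tested genes. DESeq2 called 3, against 8.9%, limma-voom 0, and the block 9, all higher, against 9.96%. Vim, the intermediate filament vimentin, had the smallest p, with 61.6, 81.3 and 89.8 CPM in L1 KO libraries 1 to 3, against 40.8, 50.5 and 56.6 CPM in WT libraries 1 to 3. Its groups were separate, at a log2 fold change of 0.65 ± 0.16 (SE; the same test, adjusted p = 0.0688, and 3.11e-05 with the block). Among 15 regulators of TOP mRNAs, 1 fell and 0 rose, against 2.43% and 2.14% of all tested genes, with a median log2 fold change of 0.03. In edgeR 2 were below 0.05 unadjusted, against 23.4% of all tested genes. DESeq2 and limma-voom each called 1, against 8.9% and 3.89%. The gene that fell was Tia1, an RNA-binding protein of stress granules, with 289, 272 and 256 CPM in L1 KO libraries 1 to 3, against 347, 339 and 327 CPM in WT libraries 1 to 3. Its log2 fold change was −0.31 ± 0.07 (SE; the same test, adjusted p = 0.0384), and it passed without L1 KO 1 but not without any other single library (adjusted p up to 0.167).

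**Figure D3:**
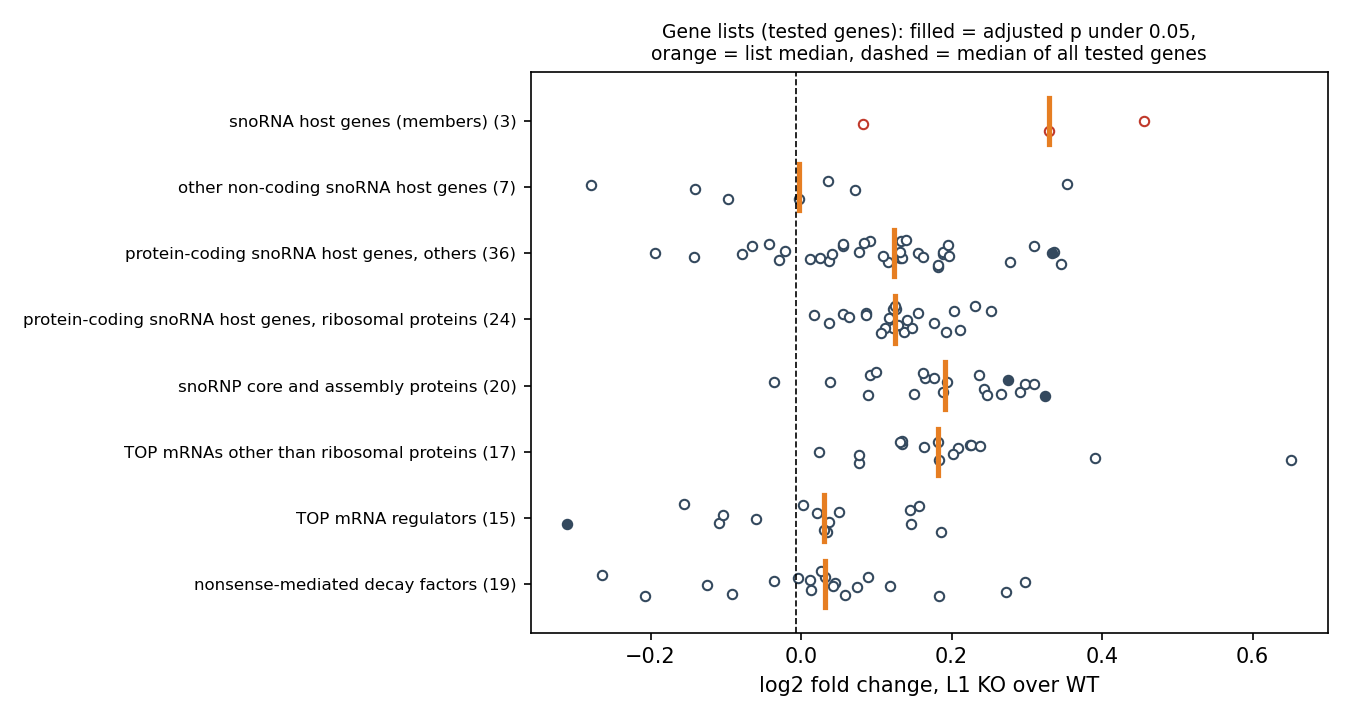
Log2 fold change of L1 KO against WT for each tested gene of the host genes and of the 7 lists, with a bar at each list's median, filled points past an adjusted p of 0.05 and a dashed line at the median of all tested genes. The TOP mRNAs and the ribosomal protein hosts lie above 0, and the filled points are Fbl, Snu13 (Nhp2l1), Snx5 and, below 0, Tia1.

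The genes whose pattern over the 6 libraries lay closest to the mean profile of Gas5, Snhg3 and Snhg12 were Oxct1, a mitochondrial enzyme of ketone body use, Zfp639, a zinc finger gene, Anp32b, a histone-binding protein, Pdss1, an enzyme of coenzyme Q synthesis, and Spef1, a microtubule-binding protein. Their root mean square distances from that profile, on centred log2 CPM, were 0.0186 to 0.0256. Gas5, Snhg3 and Snhg12 themselves lay at 0.126, 0.106 and 0.162 from it. The named genes were picked for the smallest such distance. Gas5 and Snhg3 were the closest pair of hosts, at 0.167, with 0.243 between Snhg3 and Snhg12 and 0.270 between Gas5 and Snhg12. Oxct1 had 101, 116 and 122 CPM in L1 KO libraries 1 to 3, against 85.6, 90.7 and 96.9 CPM in WT libraries 1 to 3. Like the mean profile, for which it was picked, it had a low number 1 library in each group. Of the hosts, only Gas5 had this in both groups. Snhg12 was highest in L1 KO 1, and Snhg3 was lowest of its WT libraries in WT 2.

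**Figure D4:**
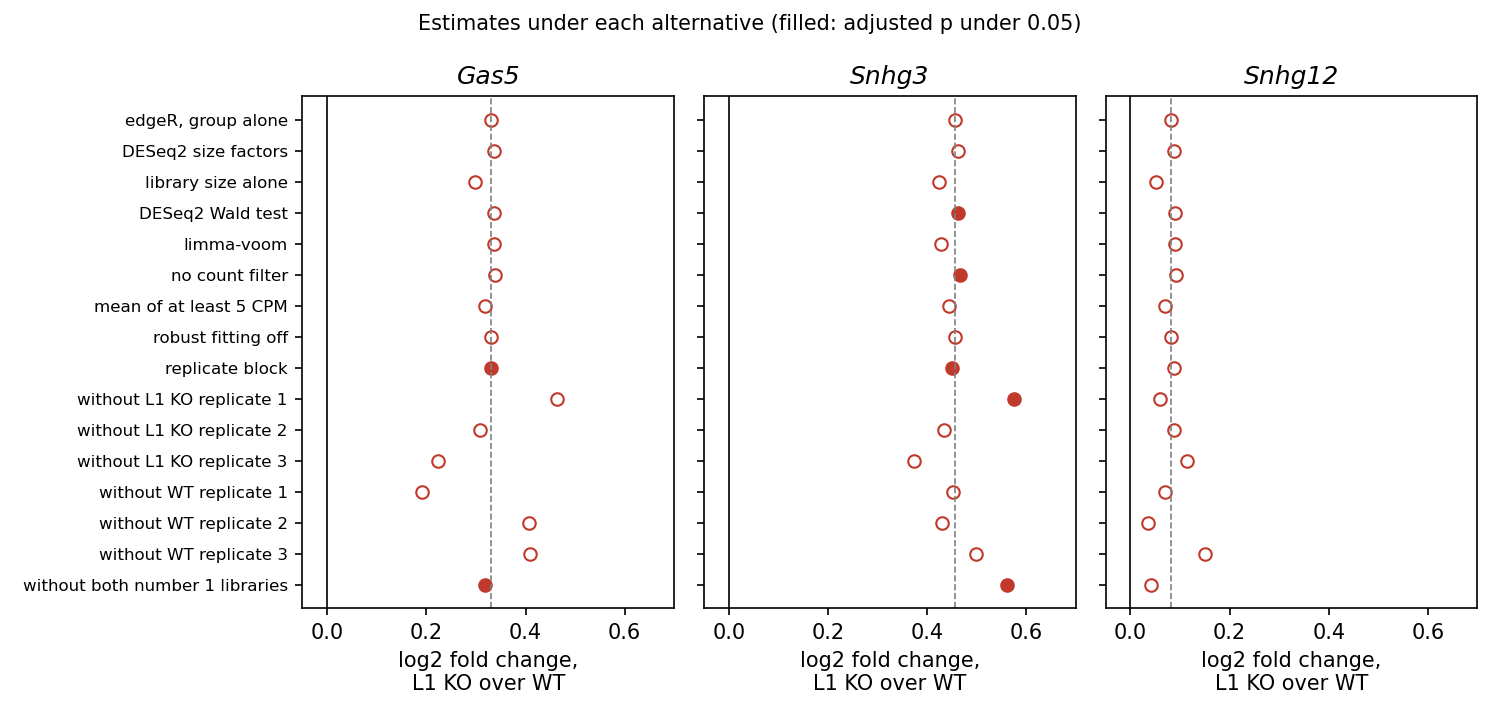
Log2 fold change of Gas5, Snhg3 and Snhg12, L1 KO against WT, under each processing choice, with filled points past an adjusted p of 0.05. All values lie above 0, and filled points occur for Snhg3 and Gas5 but not for Snhg12.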

How the data were processed

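The authors deposited raw counts of reads per gene for 6 libraries. The 5 summary lines of the counter entered neither depths nor tests. TopHat2, HTSeq and GRCm38 are named in the submitters' processing notes; no source used here gives versions, annotation, strand setting or counting mode. Reads counted to genes were 37.7% to 39.7% of the total, against 50.4% to 51.9% with no feature, 9.14% to 10.2% aligned to several places and 0.498% to 0.520% ambiguous. No pair of libraries was identical.

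Counts were compared, L1 KO against WT, with edgeR 4.0.16 in R 4.3.3 (filterByExpr with a minimum count of 10 and total of 15, TMM, robust quasi-likelihood F test, two-sided). P-values were adjusted by Benjamini-Hochberg over 13729 genes at 0.05. CPM are counts scaled by TMM, and the SE is that which the F statistic implies. Of the tested genes, 13.8% had all L1 KO libraries above WT, and 28.4% had separate groups in either direction. The procedure was tested on simulated data with changes larger than those of the hosts and no effect shared by library number. That test does not show whether changes of the hosts' size would be found. Alternatives used DESeq2 1.42.0, limma-voom (limma 3.58.1), other scalings and filters, a block on the library number and libraries left out. The labels do not tie libraries to separate animals, so the p-values cover the spread among these samples only, and it may be technical.

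Libraries of both groups are numbered 1 to 3 in the titles. Their departures from the group means correlated across genes at 0.576, 0.174 and 0.341 between same-numbered libraries, all above 0.1, which meets the rule for treating the numbers as pairs. The labels name no litter or batch behind them, and L1 KO 3 correlated with WT 2 at 0.291 and L1 KO 2 with WT 3 at 0.217, both above the number 2 pair. The comparison without the block was kept for the values given. The blocked value stands beside a result given with a p-value where it changes the call.

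The members and lists were chosen with earlier results of these data known. The 7 lists were written by symbol, or for coding hosts taken from GENCODE M21 by the rule that a snoRNA lies inside on the same strand. Genes named are the members, Rpl22l1, genes inside, overlapping or next to a member, up to 4 called genes of a list by smallest p or the gene with the smallest p where none passed, and the 5 nearest to the mean profile. A neighbouring gene is not reported here. Beyond the rule, Gar1, Nhp2, Zfas1 and Snhg20 were named after their values were seen. Loci and snoRNA sequences are from GENCODE M21 on GRCm38, and start sequences from RefSeq on GRCm38.p6.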

Additional observations from a re-analysis of the deposited data

How the results depend on the processing

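All 3 hosts had a log2 fold change above 0 under every choice tried, but the calls depended on them. In place of 628 genes called, DESeq2 gave 1222, no count filter 1037, the replicate block 2785, and leaving out both number 1 libraries 2881, while leaving out each library in turn gave 109 to 2177. Hosts called were 1 in DESeq2 and without a count filter, 2 with the block and without the number 1 libraries, and 0 to 1 with a library left out. Snhg3 passed in DESeq2 at 0.46 (adjusted p = 0.0218), without a count filter at 0.47 (adjusted p = 0.0189), with the block at 0.45 (adjusted p = 0.00867) and without the number 1 libraries at 0.56 (adjusted p = 0.00286). Gas5 passed with the block at 0.33 (adjusted p = 0.00195) and without the number 1 libraries at 0.32 (adjusted p = 0.00302). With a library left out, the log2 fold change was 0.37 to 0.58 for Snhg3, 0.19 to 0.46 for Gas5, 0.04 to 0.15 for Snhg12, and 0.19 to 0.46 for their median. The cause of these shifts was not tested.

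List genes called were 4, against 2 with library size alone, 14 in DESeq2, 9 without a count filter, 44 with the block, 42 without the number 1 libraries and 0 to 28 with a library left out. Snx5 lost its call with DESeq2 size factors, library size alone, limma-voom and robust fitting off, with adjusted p-values of 0.0505 to 0.0582, and Snu13 (Nhp2l1) with library size alone (0.0510). Values near 0 changed sign: Snora16a was at −0.0078 without L1 KO 1. Phactr4 was at 0.0026 with DESeq2 size factors, 0.0028 in DESeq2 and 0.0070 without a count filter, and between −0.0334 and 0.0296 with a library left out. Trnau1ap was between −0.0403 and 0.0209 with a library left out. The pyrimidine tract was found in 2 genes at the start and 5 in the wider window.

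Of the 628 genes, 625 were also called with the block. The adjusted p-values in these paragraphs are by Benjamini-Hochberg and from the edgeR quasi-likelihood test unless another tool is named.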
